A study of Homo sapiens with 6 samples.

Results

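HOXA10, HOXA11, JMJD1C, CDK6, LAPTM4B and DPYSL3 are 6 genes of the transcriptional program kept active by fusions of MLL (KMT2A) and of LSC17, a published expression score of leukaemia stemness built on 17 genes. The authors' deposited table holds 6831 genes, and these 6 were found in it by their symbols. They had been chosen by their listing in that table, so their fold changes and p-values are a description and support nothing beyond themselves. The libraries come from MOLM-13, an established acute myeloid leukaemia line that carries a fusion of KMT2A with MLLT3 and is given as WT in the labels. Cells were kept for 24 h with 50 nM DEG-35 (3 libraries) or with DMSO, its solvent (3 libraries), and no other agent is named. The title of the series presents DEG-35 as a compound that degrades IKZF2, a zinc-finger transcription factor of the Ikaros family, and the kinase CK1A.

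MLL fusion proteins bind at a limited set of genes, recruit elongation factors and the methyltransferase DOT1L, and keep these genes transcribed in cells that would otherwise mature. The posterior HOXA genes and their partner MEIS1 are the best known of these targets and sustain self-renewal of myeloid progenitors. HOXA10 and HOXA11 are homeodomain transcription factors whose genes lie side by side. JMJD1C belongs to the KDM3 family of JmjC proteins and is known as a cofactor of HOXA9 in leukaemia. CDK6 is the G1 kinase that pairs with D-type cyclins. LAPTM4B is a membrane protein of late endosomes and lysosomes, and DPYSL3 (CRMP4) is a cytoskeleton-binding protein best known from neurons. CDK6, LAPTM4B and DPYSL3 are members of LSC17.

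The sequences ahead of the HOXA10 and HOXA11 starts are shown because these neighbours were both lower with DEG-35. They are the 250 bases before each RefSeq start on GRCh38.p14, minus strand, 5′ to 3′. Capitals mark GGGAA, the core recognised by Ikaros family factors, TATAAA, the TATA box, and CCAAT, the CCAAT box, each on either strand.
HOXA10, chr7:27179862-27180111: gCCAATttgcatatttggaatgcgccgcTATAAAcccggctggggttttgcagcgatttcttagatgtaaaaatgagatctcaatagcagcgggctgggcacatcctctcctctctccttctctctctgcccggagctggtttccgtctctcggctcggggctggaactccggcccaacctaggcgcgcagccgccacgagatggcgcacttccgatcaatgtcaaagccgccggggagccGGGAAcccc
HOXA10, chr7:27174321-27174570: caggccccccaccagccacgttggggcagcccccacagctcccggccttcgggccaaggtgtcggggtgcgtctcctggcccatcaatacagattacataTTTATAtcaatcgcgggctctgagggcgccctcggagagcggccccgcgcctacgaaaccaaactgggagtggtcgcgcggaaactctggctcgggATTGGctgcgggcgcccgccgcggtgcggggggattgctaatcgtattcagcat
HOXA11, chr7:27185233-27185482: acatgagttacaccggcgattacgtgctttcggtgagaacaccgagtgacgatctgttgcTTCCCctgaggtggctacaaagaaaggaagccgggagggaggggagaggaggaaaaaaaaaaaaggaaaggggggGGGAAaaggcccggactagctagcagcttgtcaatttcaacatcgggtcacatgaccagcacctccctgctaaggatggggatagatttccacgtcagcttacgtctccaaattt

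Both HOXA10 windows hold 1 match in letters to the TATA box and 1 to the CCAAT box, and the HOXA11 window holds neither. The distance of a match from the start was not considered. GGGAA occurs at 1 place in the first HOXA10 window and at 2 places in that of HOXA11. For 5 of the 6 members a start was found in the RefSeq table, with 10 windows in all. GGGAA is in 5 of these 10 windows, against 59% of all 35116 windows of this length. The letters of the TATA box are in 2 of the 10 (10.7% of all windows) and those of the CCAAT box in 2 (32% of all). GGGCGG, the GC box, is in 4 of the 10 (42.6% of all), TTTGAA, the core of the cell cycle homology region, in 1 (13.3% of all) and TGACAG, the MEIS core, in 0 (13% of all). A match in letters is not a binding site, and a window without a match says nothing about the factor.

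The deposited table gives 1 log2 fold change, 1 p-value and 1 adjusted p-value per gene and no value per library. Levels in single libraries, depth and overlap between the groups can therefore not be given, and the identity of the cells cannot be checked against marker levels. Log2 fold changes were read as DEG-35 over DMSO, an order that the header does not state. All directions would turn round if it were the other way. Errors are standard errors (SE) derived from fold change and p-value together, and 95% intervals were computed from them. The labels do not name separate cultures, so p-values measure the spread between these libraries, which may be technical. All 6 members are listed because the table holds only genes with an adjusted p below 0.05. Such genes are 45.3% of the 15064 that its adjusted p-values imply were tested. Shares of a gene group given below are of all its genes, including any that were not tested. They can therefore lie lower than the share among its tested genes, which is unknown.

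With DEG-35, 4 of the 6 members were lower and 2 higher. As the members were chosen for being listed, the matching split is that of all 6831 listed genes. Of these 3613 were lower and 3218 (47.1%) higher, which are 24.0% and 21.4% of all tested genes. LAPTM4B and CDK6 change sides under other scalings. The fold changes were moderate, between -0.59 and 0.44 on the log2 scale in the authors' deposited table. HOXA11, HOXA10 and DPYSL3 were lower by about the same amount, JMJD1C was higher, and LAPTM4B and CDK6 differed least from 0. The members do not stand out by size, as the median absolute log2 fold change of all listed genes was 0.47.

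**Figure D1:**
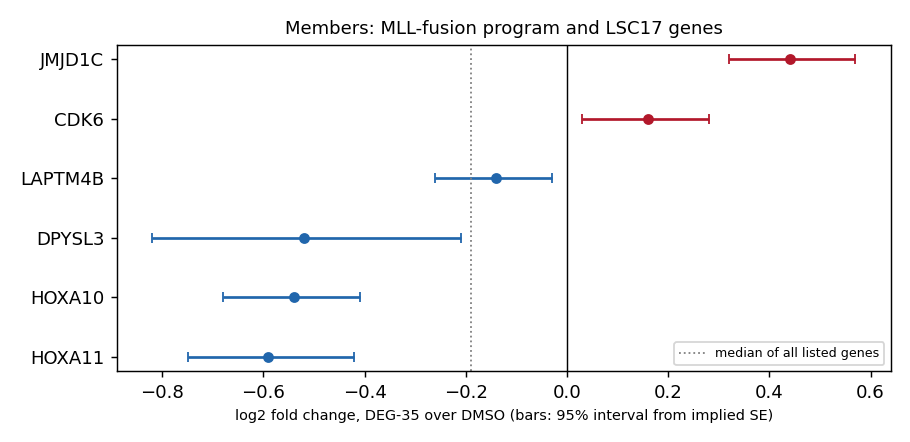
Log2 fold change of each of the 6 genes, DEG-35 over DMSO (x axis), with its 95% interval from the implied SE; blue marks lower and red higher with DEG-35, and the dotted line is the median of all listed genes at -0.19. HOXA11, HOXA10 and DPYSL3 sit at -0.59, -0.54 and -0.52, LAPTM4B lies beside the dotted line at -0.14, and CDK6 and JMJD1C are at 0.16 and 0.44.

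For HOXA10 the authors' deposited table gives a log2 fold change of -0.54 ± 0.0675 (implied SE; adjusted p = 9.22e-15). Its level with DEG-35 thus came to 68.6% of that with DMSO (95% interval 62.6 to 75.2%). It held rank 1225 of the table by p-value, the best rank of the 6 members, yet 39.9% of the genes listed as lower had fallen by more. HOXA11 stood at -0.59 ± 0.0835 in the authors' deposited table (adjusted p = 2e-11), or 66.6% of the DMSO level (59.5 to 74.6%). The log2 fold changes of these neighbours lay 0.04 apart and their intervals overlapped; the difference itself was not tested.

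The listed protein-coding HOXA genes form an unbroken stretch of the cluster. In RefSeq order HOXA7, HOXA9, HOXA10 and HOXA11 follow one another, and the authors' deposited table has all 4 as lower, although HOXA9 would turn higher if all log2 fold changes were shifted up by 0.3. HOXA9, the posterior HOXA factor most often named in MLL-fusion leukaemia, stood at -0.22 ± 0.0693 in the authors' deposited table, or 86% of the DMSO level. Its interval, -0.35 to -0.08, did not overlap those of HOXA10 (-0.68 to -0.41) or HOXA11 (-0.75 to -0.42), although a difference between genes of the same libraries was not tested. HOXA7 was less precise, at -0.38 ± 0.161 in the authors' deposited table, with an adjusted p of 0.0437.

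Noncoding genes of the cluster went both ways. HOXA10-AS, transcribed from the strand opposite HOXA10, stood at -0.48 ± 0.0799 in the authors' deposited table. The read-through locus HOXA10-HOXA9, named here after its value was seen, stood at -0.24 ± 0.0701 in the authors' deposited table. It shares exons with HOXA10 and HOXA9, and the sources used here do not say whether reads were counted by strand or shared between loci. The rows of HOXA10-AS and HOXA10-HOXA9 are therefore not independent of HOXA10, nor is that of HOXA10-HOXA9 independent of HOXA9. HOTTIP, a long noncoding RNA from the far end of the cluster known to recruit WDR5 and MLL to posterior HOXA genes, was higher at 0.33 ± 0.133 in the authors' deposited table (adjusted p = 0.0307).

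**Figure D2:**
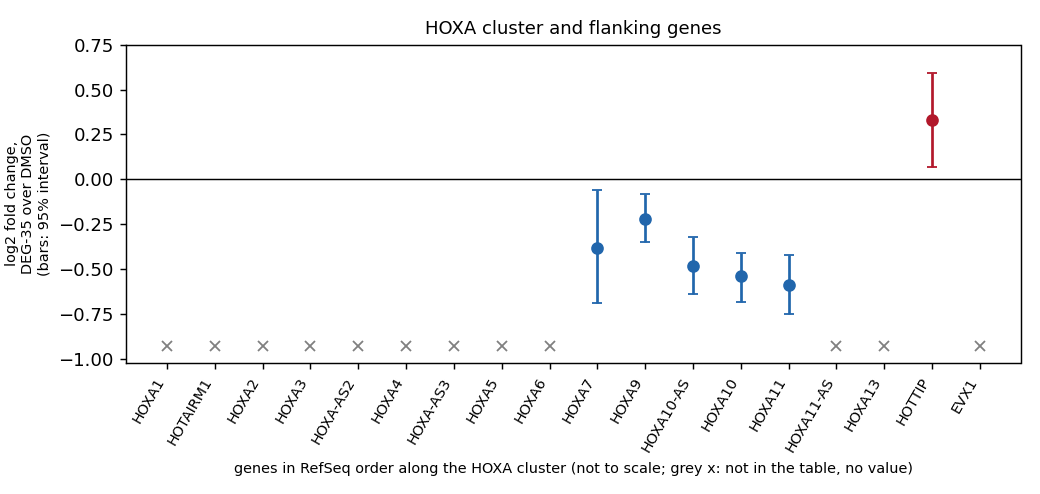
Log2 fold change, DEG-35 over DMSO, with its 95% interval (y axis) for genes of the HOXA cluster and the flanking EVX1 in RefSeq order (x axis, not to scale); a grey x marks a gene that is not in the table and has no value. The 5 lower genes, HOXA7 to HOXA11 with HOXA10-AS, are neighbours, HOXA9 turning higher after an upward shift of 0.3, and HOTTIP at 0.33 is the only one above 0 among the 6 with a value.

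Of 18 genes of the HOXA cluster and its flank 6 were listed, 5 as lower and 1 as higher, a count that includes HOXA10 and HOXA11, which were chosen for being listed. Without them 4 of 16 were listed, 3 as lower and 1 as higher (median -0.30), where 45.3% of all tested genes were listed, with a median of -0.19. The 12 unlisted genes, among them HOXA5, HOXA6, HOXA13 and HOTAIRM1, either did not pass or were not tested. Among 28 genes of the HOXB, HOXC and HOXD clusters only HOXC4, at -0.38 ± 0.09, and HOXC10, at -0.50 ± 0.164, were listed in the authors' deposited table. HOX cofactors bind DNA together with HOX proteins, and 3 of 9 were listed, all lower, although MEIS1 and MEIS2 would turn higher with the same upward shift. PKNOX1 (PREP1) stood at -0.61 ± 0.0882, MEIS2 at -0.24 ± 0.0743 and MEIS1 at -0.21 ± 0.0848 in the authors' deposited table. PBX3, a cofactor of HOXA9 in leukaemia, was not listed.

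Components of the MLL complex and of the elongation machinery that fusions recruit were mostly lower where listed. The table lists 16 of 32 (50.0%, where 45.3% of all tested genes were listed), 13 as lower and 3 as higher (median -0.33), and the split would be 9 lower and 7 higher after an upward shift of 0.3. The decrease with the smallest adjusted p was that of PSIP1 (LEDGF), which tethers MLL to chromatin, at -1.18 ± 0.0756 in the authors' deposited table (adjusted p = 6.95e-53). WDR5, a core subunit of MLL methyltransferases, stood at -0.57 ± 0.0623, DOT1L, which methylates H3K79, at -0.64 ± 0.1 and the elongation factor gene PAF1 at -0.43 ± 0.0688 in the authors' deposited table. CDK9, the kinase of P-TEFb, was higher at 0.27 ± 0.0801, as were the P-TEFb cyclin gene CCNT2 at 0.19 ± 0.0718 and AFF4, a scaffold of the super elongation complex, at 0.19 ± 0.074 in the authors' deposited table. KMT2A itself, named here after its value was seen, stood at -0.39 ± 0.0706 in the authors' deposited table, a row that does not tell normal from fusion transcripts. MLLT3 and MEN1 were not listed.

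JMJD1C was the clearest rise among the members. Its log2 fold change was 0.44 ± 0.0618 in the authors' deposited table (adjusted p = 6.44e-12), which puts its level with DEG-35 at 136% of that with DMSO (95% interval 125 to 148%). It held rank 1519 by p-value, and 56.2% of the genes listed as higher had risen by more.

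Other histone demethylase and JmjC genes were listed in both directions. The group joins JmjC proteins with both LSD-type demethylases. Without JMJD1C 14 of its 30 genes were listed, where 45.3% of all tested genes were, 10 as higher and 4 as lower (median 0.25). With JMJD1C it was 11 higher and 4 lower, or 7 higher and 8 lower after a downward shift of 0.3. The other members of the KDM3 family, KDM3A and KDM3B, were not among them. KDM6B, which removes H3K27 methylation, stood at 0.94 ± 0.106, KDM4A, which acts on H3K9 and H3K36, at 0.79 ± 0.0675 and KDM5B, which acts on H3K4, at 0.73 ± 0.0758 in the authors' deposited table. KDM7A was lower at -0.67 ± 0.0904, PHF2 at -0.53 ± 0.086, KDM1A (LSD1) at -0.24 ± 0.0614 and KDM2B at -0.20 ± 0.0673 in the authors' deposited table.

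Direct targets of MLL fusions were listed in both directions. The table lists 23 of 37 such genes (62.2%), 12 as higher and 11 as lower, where 45.3% of all tested genes were listed. The 62.2% is raised by 4 members on this list, which were chosen for being listed. The split depends on the scaling, with 17 higher and 6 lower after an upward shift of 0.3 and 7 higher and 16 lower after a downward one. As deposited and without these 4 members 19 of the remaining 33 were listed, 10 as higher and 9 as lower. LMO2, a transcriptional cofactor of early blood cells, stood at 0.83 ± 0.0624, the membrane protein gene LAMP5 at 0.61 ± 0.0606 and the receptor kinase gene FLT3 at 0.44 ± 0.0656 in the authors' deposited table. In the authors' deposited table SATB1, a chromatin organiser, was lower at -0.39 ± 0.0623, and so was GFI1, a transcriptional repressor, at -0.31 ± 0.0614. JMJD1C and CDK6 thus stood on the side of LMO2 and FLT3, HOXA10 and HOXA11 on that of SATB1 and GFI1. MYB, BCL2 and RUNX2 were not listed.

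CDK6 changed least among the higher members. In the authors' deposited table it had a log2 fold change of 0.16 ± 0.064 (adjusted p = 0.0322), or 112% of the DMSO level (95% interval 102 to 122%). Of the genes listed as higher 99% had risen by more, and it would turn lower, at -0.14, if all values were shifted down by 0.3. Its closest relative CDK4, named here after its value was seen, stood at -0.41 ± 0.0551 in the authors' deposited table, and the intervals of these kinases did not overlap.

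Listed genes around CDK6 ranged widely in size. Of 28 genes of the G1 kinase, RB and E2F pathway 21 were listed (75%, where 45.3% of all tested genes were), 16 as lower and 5 as higher (median -0.64). Without CDK6 it was 20 of 27, 16 lower and 4 higher. The remaining 7 genes were not listed. CCND3, at 0.17, was close to CDK6, while E2F6 and E2F3 had small decreases, at -0.26 and -0.31 in the authors' deposited table. The higher ones were CDK6, all 3 D-type cyclins and the inhibitor CDKN1A. CDKN1A, which encodes p21, stood at 1.91 ± 0.0579, CCND2 at 0.67 ± 0.0646, CCND1 at 0.89 ± 0.151 and CCND3 at 0.17 ± 0.0744 in the authors' deposited table, where CDK6 and CCND3 would turn lower with a downward shift of 0.3. E2F8, a late cell cycle E2F, was lower at -2.47 ± 0.0902, the activator E2F2 at -2.62 ± 0.113, the E2F partner TFDP1 at -1.21 ± 0.0536 and the S-phase kinase gene CDK2 at -1.63 ± 0.0719 in the authors' deposited table.

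**Figure D3:**
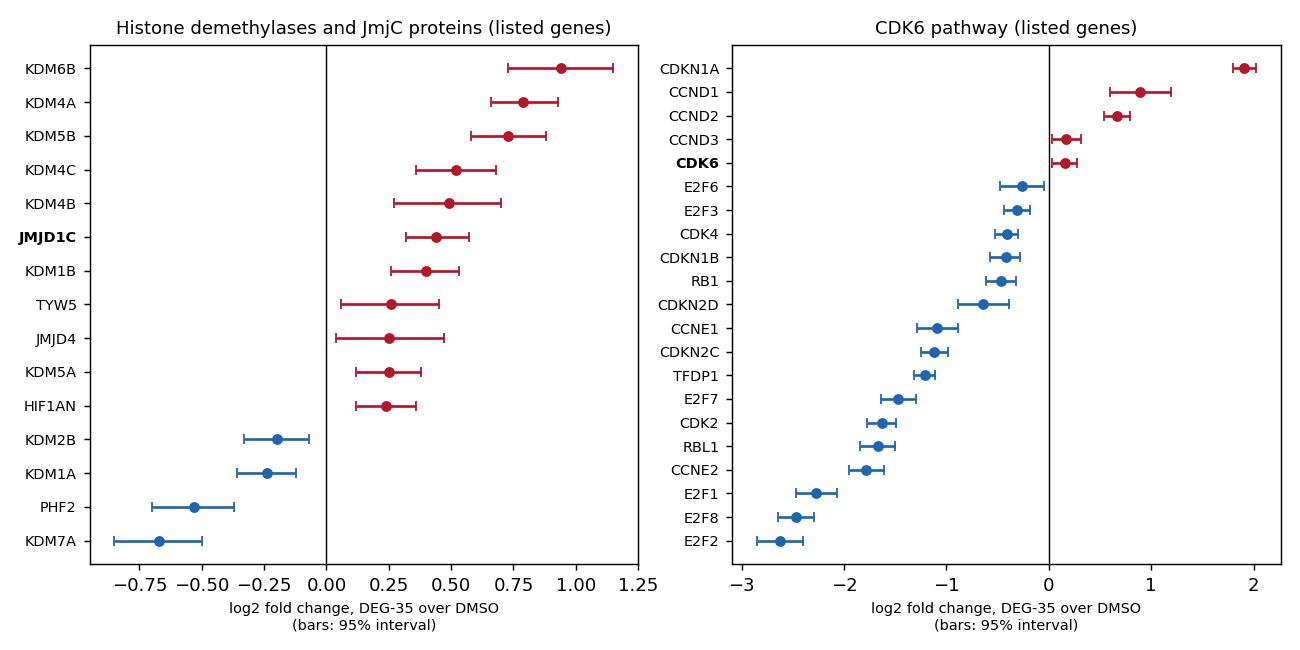
Log2 fold change, DEG-35 over DMSO, with its 95% interval (x axes, different scales) for the listed histone demethylase and JmjC genes (left) and the listed genes of the CDK6 pathway (right), with JMJD1C and CDK6 in bold. JMJD1C at 0.44 lies among 11 genes above 0 and 4 below it, while CDK6 at 0.16 is the smallest of 5 higher genes above 16 lower ones that reach -2.62.

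LAPTM4B and DPYSL3 were both lower, to different degrees. LAPTM4B stood at -0.14 ± 0.0575 in the authors' deposited table (adjusted p = 0.0298), or 90.5% of the DMSO level (95% interval 83.7 to 97.9%). Only 18 genes of the whole table had a smaller absolute fold change. It would turn higher, to 0.05, if the values were centred on the table's median of -0.19, and to 0.16 after an upward shift of 0.3. Of its 2 relatives LAPTM5, a lysosomal protein of blood cells, was higher at 0.82 ± 0.0533 in the authors' deposited table, and LAPTM4A was not listed.

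The value of DPYSL3 in the authors' deposited table was -0.52 ± 0.154 (adjusted p = 0.00248), or 69.9% of the DMSO level (95% interval 56.7 to 86.2%). It was the least precise member, with the largest implied SE, so that it held rank 4773 by p-value although its decrease was close to that of HOXA10. DPYSL2 (CRMP2), its relative that binds tubulin, was also lower, at -0.31 ± 0.0713 in the authors' deposited table, with overlapping intervals. CRMP1, DPYSL4, DPYSL5 and DPYS were not listed.

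In LSC17 as a whole 4 of 17 genes were listed (23.5%, where 45.3% of all tested genes were). This count includes CDK6, LAPTM4B and DPYSL3, which were chosen for being listed. Of the remaining 14 genes 1 was listed. It was the DNA methyltransferase gene DNMT3B, lower at -0.62 ± 0.0802 in the authors' deposited table. CDK6 was thus the 1 higher gene beside 3 lower ones, and the split would be 2 and 2 if LAPTM4B turned higher on centring. This split counts directions only and uses no weights of the genes in the score. The stem cell antigen gene CD34, ADGRG1 (GPR56), SOCS2, EMP1 and AKR1C3 were among the 13 not listed, so no score could be formed and no change of the score can be read from these genes.

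Other regulators and surface antigens, of stem and progenitor cells but also of more mature myeloid cells, were mostly higher where listed. The table lists 12 of 36 such genes (33.3%, where 45.3% of all tested genes were), 10 as higher and 2 as lower (median 0.52), or 7 and 5 after a downward shift of 0.3. CD38, an antigen of more mature progenitors, stood at 1.28 ± 0.139, the myeloid antigen gene CD33 at 0.67 ± 0.0749 and the adhesion receptor gene CD44 at 0.62 ± 0.0675 in the authors' deposited table. The RNA of IKZF2, named here after its value was seen, stood at 0.82 ± 0.131 in the authors' deposited table (adjusted p = 3.71e-09). These data hold no measure of its protein. The 2 lower genes were the Polycomb gene BMI1, at -0.63 ± 0.0615, and HMGA2, a chromatin protein of growing cells, at -0.30 ± 0.089 in the authors' deposited table. KIT, MECOM, GATA2 and PROM1 were not listed.

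No group of markers of mature blood cells had a larger listed share than all tested genes. Of 20 monocyte markers 9 were listed (45.0%, where 45.3% of all tested genes were). The others, among them CD14, S100A8 and S100A9, either did not pass or were not tested. All 9 listed markers were higher, from 0.28 for LYZ to 1.57 for CSF1R and 1.66 for ITGAX in the authors' deposited table. The lowest of them, LYZ, would turn lower after a downward shift of 0.3. Of 12 erythroid markers 1 was listed, lower, and of 14 lymphoid markers 4 were, 2 higher and 2 lower. The proliferation marker MKI67 stood at -2.52 in the authors' deposited table, where its p of 0 gives no implied SE. The part of maturation or of slower division in the values of the 6 members was not tested. Fewer cells of a type and less RNA per cell cannot be told apart in bulk samples.

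**Figure D4:**
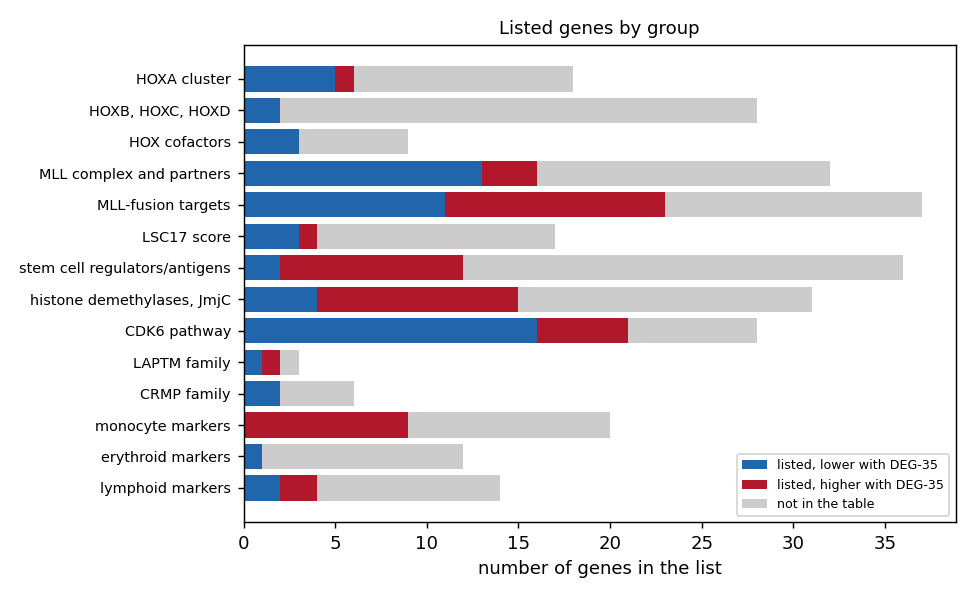
Number of genes (x axis) in each group that were listed as lower (blue) or higher (red) with DEG-35 or were not in the table (grey). Listed genes of the MLL complex (13 lower, 3 higher) and the CDK6 pathway (16 lower, 5 higher) were mostly lower, while listed monocyte markers (9) were all higher, 8 of them also after a downward shift of 0.3, and MLL-fusion targets (11 lower, 12 higher) were mixed.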

How the data were processed

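RNA-seq libraries of MOLM-13 cells, 3 with DEG-35 and 3 with DMSO, were grouped by their titles. Per the submitters' processing notes, hg19 was the build, and DESeq2, featureCounts and STAR are named with no version, role or option. Per the file headers, the authors deposited log2 fold changes with p-values, raw and adjusted, per gene. The numerator and any shrinkage are not stated. No new test was run: adjusted p-values are the authors'. For the 2789 genes with p above 0.0001, adjusted p times rank over p gave 15064 tests, within 0.0413%. The implied SE is the absolute log2 fold change over the normal quantile of the two-sided p, assuming a Wald test. Depth is unknown, and no counting interval is given.

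The members and the 11 gene lists, as well as the markers, were chosen with earlier results of these data known, and the motifs after the values had been seen. Genes named were all listed members of small lists and, of larger lists, up to 4 per direction with the smallest adjusted p. A rule on closest relatives by protein identity could not be applied, and not every gene that the rules take is described. Symbols were matched exactly or through RefSeq synonyms (GRCh38.p14) that no other gene carries, and none needed a synonym. RefSeq gave gene order and promoters. The tools were SciPy 1.17.1, NumPy 2.4.6, pandas 2.3.3 and Matplotlib 3.10.9 under Python 3.11.15. The implied SE and the number of tests were checked on simulated data.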

Additional observations from a re-analysis of the deposited data

How the results depend on the processing

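No paired analysis was possible because the table holds no value per library, and for the same reason leaving out replicates, other size factors and other count filters were not run. At an adjusted p below 0.01 the members listed were 4 in place of 6 (1 in place of 2 higher and 3 of 4 lower), CDK6 and LAPTM4B being lost. Bonferroni adjustment over 15064 tests kept 3 members, JMJD1C as the 1 higher and HOXA10 and HOXA11 as the 2 lower. A minimum of 0.5 on the absolute log2 fold change also kept 3, HOXA10, HOXA11 and DPYSL3, and 0 higher. Of 228 distinct genes on the 11 lists 94 were listed, 39 higher and 55 lower, where 45.3% of all tested genes were listed. This count includes the 6 members, which were chosen for being listed. Of all listed genes 47.1% were higher. Bonferroni adjustment kept 50 of the 94 (19 higher, 31 lower) and the minimum fold change 38 (15 higher, 23 lower). All these losses are by construction, as these settings are stricter.

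Shifts of all log2 fold changes were tried because the scaling factors are unknown. They moved only genes already in the table and could not add or drop one. With a shift down by 0.3, CDK6 stood at -0.14, which left 1 higher member, and 24 list genes were higher and 70 lower. With a shift up by 0.3 LAPTM4B stood at 0.16, and 54 list genes were higher and 40 lower, which turns the majority round. Centred on the table's median LAPTM4B stood at 0.05. HOXA10, HOXA11 and JMJD1C kept their direction and stayed past the table's largest p under all 3 of these settings. DPYSL3 kept its direction but no longer passed when shifted up (-0.22) or centred (-0.32).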
